A study of Homo sapiens with 10 samples.

Results

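Knockdown of SHIP2 was examined in KYSE-30, a cell line from a human esophageal squamous cell carcinoma, by sequencing total RNA 48 h after transfection. Libraries were chosen by line and treatment alone. They were 2 libraries of KYSE-30 cells given siSHIP2, a small interfering RNA (siRNA) against INPPL1, the gene of SHIP2, and 2 libraries of KYSE-30 cells given siCT, a non-targeting siRNA, so 4 of the 10 libraries in all. The other 6 came from KYSE-410, another esophageal squamous carcinoma line, with 3 siSHIP2 and 3 siCT libraries at the same time point. The design names 1 siRNA against INPPL1 for KYSE-30. Effects of that siRNA on other transcripts and effects of less SHIP2 therefore cannot be told apart. Library names give the siSHIP2 libraries of both lines the same siRNA number, so changes shared by the lines do not separate them either. Replicates carry numbers in the labels, with no word on separate cultures. The p-values therefore measure a spread between libraries, pooled over both lines, which may be technical.

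SHIP2 is an inositol phosphatase that removes a phosphate from phosphatidylinositol trisphosphate, the membrane lipid made by PI3K. That lipid recruits the kinase AKT, which restrains FOXO transcription factors and supports protein synthesis and the cell cycle. INPP5D, or SHIP1, is the relative of SHIP2 best known from blood cells. In the esophagus, squamous cells of the basal layer depend on the lineage factors TP63 and SOX2.

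Values are CPM, counts scaled to the total of each library. Differences are taken between means of log2(CPM + 1), a scale on which changes of genes at low levels come out too small. A gene was called when its adjusted p was at most 0.05 in limma, over all 18339 genes with at least 0.5 CPM in 2 of the 4 KYSE-30 libraries. These 4 libraries had an estimated 18.5 to 25.8 M reads on genes, with 26636 to 27835 genes above 0. Mitochondrially encoded genes took 2.75% to 2.93% of each library.

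The squamous label was checked against 8 markers. TP63, EPCAM and CDH1 were present in all 4 libraries, with CDH1 at 459 to 532 CPM, though EPCAM and CDH1 are not particular to squamous epithelium. The squamous lineage factor SOX2 and the keratins KRT14, KRT17 and KRT6A were low, with KRT6A at 12.3 to 19.5 CPM, KRT14 at 4.9 to 7.74 CPM and KRT17 at 0.599 to 0.899 CPM. The basal keratin KRT5 was near the floor of 3 scaled counts, with 0.15 and 0.25 CPM in siSHIP2 cells and 0.1 and 0.3 CPM in siCT cells. KRT8, a keratin of simple epithelia, had 2929 and 2940 CPM in siSHIP2 cells and 2661 and 2459.6 CPM in siCT cells, and its simple-epithelial partners KRT18 and KRT19 lay at 1616 to 1781 CPM and 693 to 892 CPM. The 16 markers of glandular epithelium summed to 5544 to 5597 CPM in siSHIP2 libraries and 4942 to 5453 CPM in siCT libraries. Among markers of other cells, 10 fibroblast genes summed to 7.75 to 8.39 CPM in siSHIP2 libraries and 8.05 to 9.19 CPM in siCT libraries, with DCN and LUM at 0. The 8 endothelial genes summed to 7.3 to 7.99 CPM in siSHIP2 libraries and 7.4 to 10.04 CPM in siCT libraries, with KDR and TEK at 0, and 10 leukocyte genes, mostly CD68, to 21.1 to 24.2 CPM in siSHIP2 libraries and 18.9 to 21.3 CPM in siCT libraries, with CD3D and MS4A1 among those at 0. The 10 neural genes, mostly TUBB3, summed to 116 to 126 CPM in siSHIP2 libraries and 110.2 to 120.4 CPM in siCT libraries. Within the endothelial list CDH5 was called lower (2.25 and 2.5 CPM in siSHIP2 cells, 5.15 and 3.3 CPM in siCT cells), while ESAM lay higher in siSHIP2 libraries and was not called (4.39 and 3.6 CPM in siSHIP2 cells, 2.8 and 3.15 CPM in siCT cells, limma adjusted p = 0.175). Within the neural list MAP2 was called lower (13.5 and 16.3 CPM in siSHIP2 cells, 31.1 and 20 CPM in siCT cells), while TUBB3 lay higher and was not called (98.3 and 105 CPM in siSHIP2 cells, 84 and 86 CPM in siCT cells, limma adjusted p = 0.0503). The part of such markers in other results was not tested.

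INPPL1 (ENSG00000165458, chromosome 11, 72223701 to 72239105, plus strand, GRCh38) was lower in siSHIP2 cells. It had 23.2 and 24.5 CPM in siSHIP2 cells and 39.9 and 36.2 CPM in siCT cells. The groups did not overlap, and the siSHIP2 mean was 62.8% of the siCT mean (23.9 ± 0.93 against 38.0 ± 2.61 CPM, SD, n = 2 each). The log2 difference was -0.65 (SE 0.0815, limma adjusted p = 0.000788). The call was lost without siSHIP2 replicate 1 (limma adjusted p = 0.0635) or without siCT replicate 1 (0.0572). In KYSE-410 the siSHIP2 mean was 37.4% of the siCT mean. The log2 differences of the lines differed by 0.75 (SE 0.105, limma interaction, adjusted p = 7.93e-05), with the smaller fall in KYSE-30.

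Of 25 tested phosphoinositide phosphatases, 2 fell with siSHIP2, INPPL1 itself among them, where 2.98% of all genes tested were called in either direction. INPP5D was near the floor, with 0.35 and 0.6 CPM in siSHIP2 cells and 0.55 and 0.5 CPM in siCT cells, and its groups overlapped. Limma called 0 of 33 genes of PI3K, AKT and mTOR signalling (9 at an unadjusted p under 0.05), edgeR called 0 and DESeq2 called 1, lower. AKT1 had 162 and 154 CPM in siSHIP2 cells and 143 and 144 CPM in siCT cells (0.14, limma adjusted p = 0.164). The mTOR adaptor gene RPTOR had 61.8 and 61.3 CPM in siSHIP2 cells and 51.6 and 51.4 CPM in siCT cells (0.25, limma adjusted p = 0.0672). The PI3K subunit gene PIK3CA had 54 and 66.5 CPM in siSHIP2 cells and 73.3 and 74.5 CPM in siCT cells (-0.30, limma adjusted p = 0.076). AKT1 and RPTOR lay above and PIK3CA below their siCT libraries, short of the threshold.

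Over all genes 547 were called in KYSE-30, 193 higher (1.05% of genes tested) and 354 lower (1.93%) in siSHIP2 cells. Changes were small. The median called gene moved by 0.40 on the log2(CPM + 1) scale. On that scale 25 rose and 62 fell by at least 1.5-fold, and the 6 that changed by at least 2-fold, all lower, were PSIP1, SLITRK6, TNC, SOX2, KCNK2 and GABRP. By the ratio of mean CPM, which is larger for genes at low levels, 16 were at least 2-fold higher and 23 at least 2-fold lower. Of the 547 called genes 9 were under 0.5 CPM in both libraries of 1 group, so they passed the filter through the other group alone. In every called gene the siSHIP2 libraries lay wholly above or wholly below the siCT libraries, which was also so for 47.6% of all genes tested. The count rests on single libraries. Limma called 13 genes without siSHIP2 replicate 1 of KYSE-30 and 17 without siCT replicate 1. Because the lines share an estimate of the spread, leaving out a KYSE-410 library also moved the count, to 917 without siSHIP2 replicate 1, 301 without siSHIP2 replicate 3, and 269, 236 and 315 without siCT replicates 1, 2 and 3. With KYSE-30 fitted alone 112 genes were called, 102 of them among the 547. Higher genes made up 35.3% of the calls, against 23.9% with DESeq2, which called 157 higher and 500 lower, and 12.7% without siSHIP2 replicate 2 (53 higher, 364 lower).

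**Figure D1:**
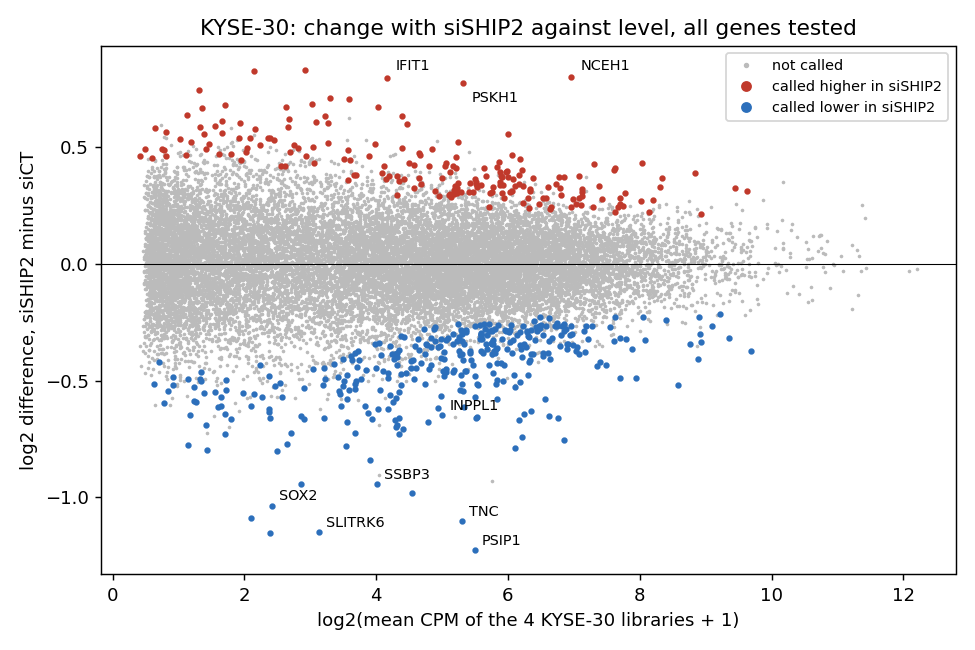
Log2 difference between siSHIP2 and siCT (vertical axis) against the level of each gene (horizontal axis, log2 of the mean CPM of the 4 KYSE-30 libraries + 1), 1 point per gene tested. The 193 genes called higher are red and the 354 called lower are blue, and the 6 called genes beyond 2-fold on this scale all lie on the lower side.

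Pairs of libraries differed in how far apart they were. Among 12518 genes with a mean of at least 5 CPM, the SD of the log2 difference was 0.237 between siSHIP2 replicate 1 and siCT replicate 1, and 0.160 between siSHIP2 replicate 2 and siCT replicate 2. It was 0.133 between the siSHIP2 libraries and 0.159 between the siCT libraries. The closest siSHIP2 and siCT libraries thus differed about as much as the siCT libraries did from each other. As a description of the called genes, the median log2 difference of those called lower was -0.49 between the libraries numbered 1 and -0.29 between those numbered 2. For those called higher it was 0.39 in both pairs.

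The difference between siSHIP2 and siCT moved with the GC content of the transcript. Among genes with a mean of at least 5 CPM, the decile with the lowest GC content (up to 38.5%) had a median log2 difference of -0.12, and the decile with the highest (from 61.3%) one of 0.13. In KYSE-410 these medians were 0.11 and -0.02. Between siSHIP2 replicates 1 and 2 of KYSE-30 the median in the lowest decile was -0.14, as large as that between the treatments. In the highest decile it was -0.02, smaller than the 0.13 between the treatments. Between siCT replicates 1 and 2 the medians were -0.03 in the lowest decile and 0.05 in the highest. Genes called higher had a median GC content of 59.9%, genes called lower 41.5% and all genes tested 48.9%. Median transcript length was 3108 bases for genes called higher and 4172 for genes called lower, with 2880 for all genes tested. With a correction for GC content limma called 183 genes (0.998% of genes tested, 58 higher, 125 lower), 162 of them among the 547, and no called gene changed direction. Of the 87 named genes called in KYSE-30, 45 lost the call with this correction. The part of GC content in each result was not tested.

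**Figure D2:**
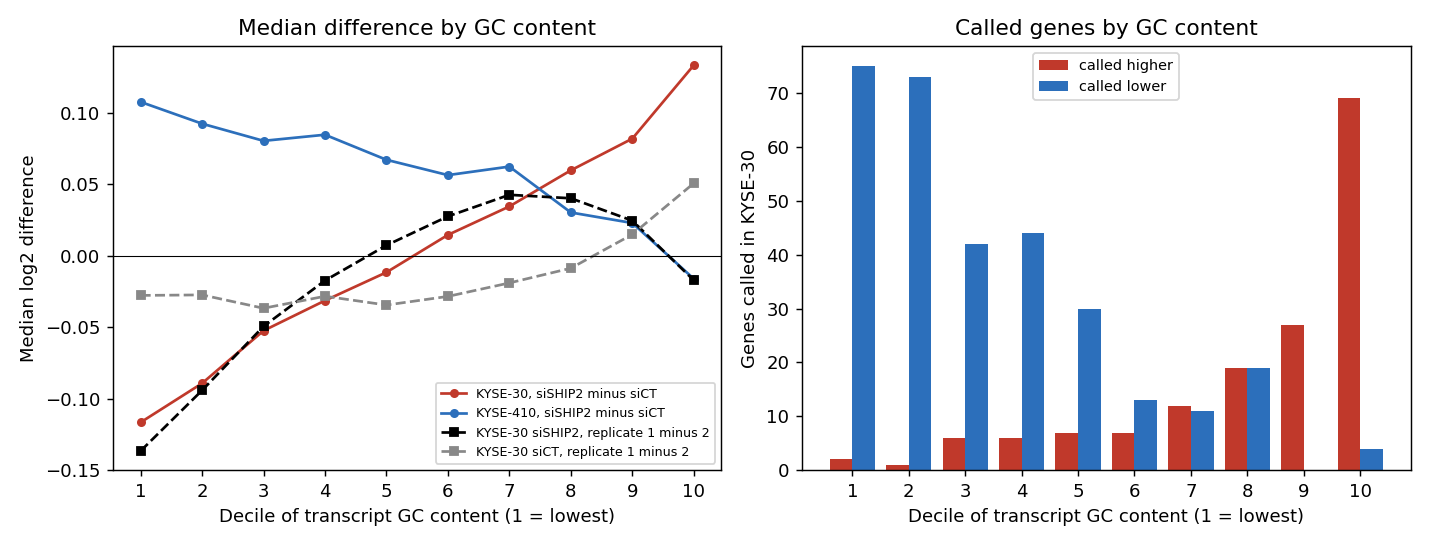
Left, median log2 difference in each decile of transcript GC content, for siSHIP2 minus siCT in KYSE-30 and KYSE-410 (solid lines) and between replicates within KYSE-30 groups (dashed lines). Right, genes called in KYSE-30 in each decile: the lowest holds 2 higher and 75 lower calls, the highest 69 higher and 4 lower.

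Calls that held under each of the 25 alternatives were 7, with 2 higher and 5 lower. NCEH1 (chromosome 3, 172630249 to 172711218, minus strand), which encodes a hydrolase of cholesterol esters, had 153 and 162 CPM in siSHIP2 cells and 81.6 and 99 CPM in siCT cells (0.80, SE 0.0757, limma adjusted p = 0.00014). PSKH1 (chromosome 16, 67893272 to 67929678, plus strand), a serine kinase gene, had 49 and 49.4 CPM in siSHIP2 cells and 28.4 and 28.3 CPM in siCT cells (0.77, limma adjusted p = 0.000181). In KYSE-410 PSKH1 was called higher as well, at 0.91, and the difference between the lines was not called (limma interaction, adjusted p = 0.342). Of the lower genes, PSIP1 (chromosome 9, 15464066 to 15511019, minus strand) encodes LEDGF, which reads a histone mark of transcribed genes and tethers partner proteins to chromatin. It had 24.8 and 27.2 CPM in siSHIP2 cells and 60.2 and 64.2 CPM in siCT cells, with the siSHIP2 mean at 41.8% of the siCT mean (-1.23, SE 0.109, limma adjusted p = 0.000115). TNC (chromosome 9, 115019578 to 115118257, minus strand), the matrix glycoprotein tenascin C, had 25.4 and 22.6 CPM in siSHIP2 cells and 60.2 and 46.1 CPM in siCT cells (-1.102, SE 0.127, limma adjusted p = 0.000408). CREG1 (chromosome 1, 167529117 to 167553805, minus strand), a secreted glycoprotein of lysosomes, had 44.1 and 54.5 CPM in siSHIP2 cells and 92 and 79.5 CPM in siCT cells (-0.79, SE 0.088, limma adjusted p = 0.000374). In each of these genes the gap between the groups was larger than the distance between replicates. The rest of the 7, named after their values were seen, were RCN2, which encodes a calcium-binding protein of the endoplasmic reticulum, and CFL2, which encodes an actin-severing cofilin, and they fell by 0.66 and 0.67.

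Among called genes with a mean of at least 5 CPM, the other large falls were in part those of genes whose siCT libraries lay far apart. SLITRK6, a transmembrane protein of neurons and sensory epithelia, had 3.9 and 4.8 CPM in siSHIP2 cells and 13.7 and 8.49 CPM in siCT cells (-1.15, limma adjusted p = 0.00357). SLC1A6, a glutamate transporter gene, had 14.8 and 13.9 CPM in siSHIP2 cells and 37.3 and 23.1 CPM in siCT cells (-0.98). In both, siCT replicate 1 was the higher control. The same held for VTCN1, an inhibitory ligand of T cells (8.99 and 9.99 CPM in siSHIP2 cells, 24.2 and 12.9 CPM in siCT cells), for CCNG2, an unconventional cyclin (6.34 and 8.4 CPM in siSHIP2 cells, 17.8 and 9.79 CPM in siCT cells), and for AGR2, a disulfide isomerase of secretory cells (79.8 and 85.6 CPM in siSHIP2 cells, 181 and 108 CPM in siCT cells). Controls lay closer together for SSBP3, a transcriptional cofactor (9.49 and 10.6 CPM in siSHIP2 cells, 20.8 and 19.8 CPM in siCT cells, -0.95), and for CEACAM6, a cell surface glycoprotein (14 and 14.5 CPM in siSHIP2 cells, 25.9 and 22.7 CPM in siCT cells, -0.73). PTPRR, a tyrosine phosphatase that acts on ERK kinases, had 3.3 and 4.6 CPM in siSHIP2 cells and 9.59 and 7.39 CPM in siCT cells (-0.94, limma adjusted p = 0.00255). SEMA3D, a secreted semaphorin, FAT2, an atypical cadherin, and ENPP5, of the nucleotide phosphodiesterase family, fell by 0.77, 0.72 and 0.72. Of the 15 largest falls 10 were called with the GC correction, 3 without siSHIP2 replicate 1 and 5 without siCT replicate 1.

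Among called genes with a mean of at least 5 CPM, the largest rises on the log2(CPM + 1) scale were those of a pseudogene, of NCEH1 (0.80) and of IFIT1 (0.80), and by the ratio of mean CPM IFIT1 (1.80) lay above NCEH1 (1.74). The pseudogene, RPS27AP16, had 11.1 and 6.5 CPM in siSHIP2 cells and 4.25 and 4.45 CPM in siCT cells (limma adjusted p = 0.0462), and since its reads could come from the gene it copies, its value is uncertain. TRAF1, an adaptor of TNF receptors, had 13.8 and 13.9 CPM in siSHIP2 cells and 7.04 and 9.29 CPM in siCT cells (0.71, limma adjusted p = 0.0185). FSTL3, a secreted inhibitor of activin, had 9.04 and 9.04 CPM in siSHIP2 cells and 4.4 and 6.2 CPM in siCT cells (0.69, limma adjusted p = 0.00846). In both, the siSHIP2 libraries lay together and the siCT libraries lower and further apart. NACC2, a transcriptional repressor, had 72.2 and 78.7 CPM in siSHIP2 cells and 53 and 48.8 CPM in siCT cells (0.56, limma adjusted p = 0.000733). NPTX1, a neuronal pentraxin, had 18.9 and 19.2 CPM in siSHIP2 cells and 11.7 and 11.4 CPM in siCT cells (0.67). Rises of 0.71, 0.64, 0.60 and 0.53 were those of NAV3, a microtubule-binding protein, SMIM13, a small membrane protein, NCR3LG1, a ligand of natural killer cells, and CHPF, of chondroitin synthesis. The other members of the 15, described with their lists, were SPRR1B, IFIT1, IFI44 and OASL. Of the 15 largest rises 11 were called with the GC correction, and 3 each without siSHIP2 replicate 1 and without siCT replicate 1.

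**Figure D3:**
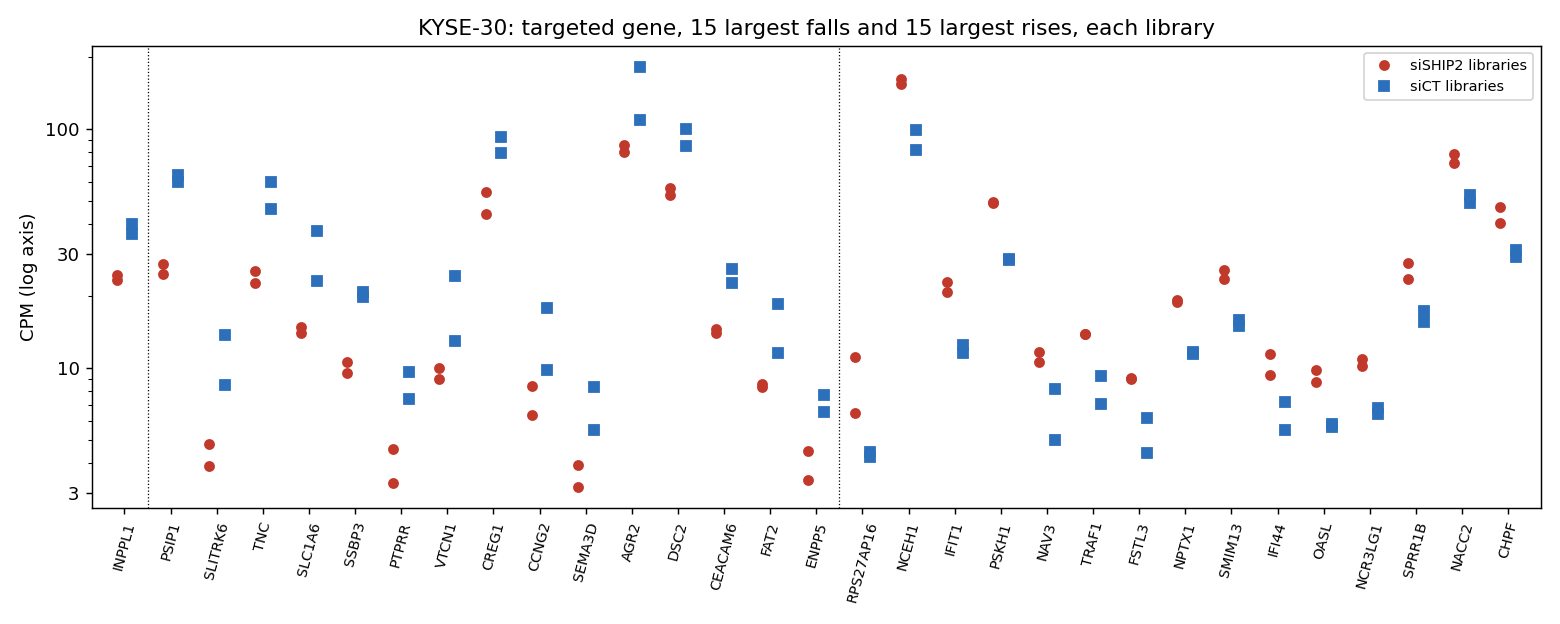
Level in each KYSE-30 library (CPM, log axis) of INPPL1, the 15 largest falls and the 15 largest rises, with siSHIP2 libraries as red circles left of siCT libraries as blue squares. The falls and rises were chosen among genes whose groups do not overlap, which held for 47.6% of all genes tested. In AGR2, VTCN1 and CCNG2 the siCT libraries lie far apart.

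Interferon-stimulated genes, which cells turn on in response to interferon and foreign RNA, held 7 rises and 0 called falls among 35 tested members. Their median log2 difference was 0.10 (all genes tested 0.00), and 20 of the 35 (57.1%) lay above 0, as did 51.1% of all genes tested, of which 1.05% were called higher. IFIT1, which binds RNA with foreign cap structures, had 20.7 and 22.8 CPM in siSHIP2 cells and 12.5 and 11.6 CPM in siCT cells (0.80, SE 0.167, limma adjusted p = 0.0227). Its relative IFIT3 had 22.1 and 25.3 CPM in siSHIP2 cells and 16.8 and 16.1 CPM in siCT cells (0.50, limma adjusted p = 0.0394). IFI44 had 9.39 and 11.4 CPM in siSHIP2 cells and 5.5 and 7.25 CPM in siCT cells (0.63, limma adjusted p = 0.0158). In all 3 both siSHIP2 libraries were above both siCT libraries. ISG15, a ubiquitin-like modifier, had 15.2 and 17.2 CPM in siSHIP2 cells and 11.7 and 11.2 CPM in siCT cells (0.46, limma adjusted p = 0.0424). OAS3, OASL and OAS2, of the family that senses double-stranded RNA, rose by 0.33, 0.61 and 0.59. With the GC correction 4 members were called, namely IFIT1, IFI44, IFIT3 and DDX60, and with TMM scaling 6. EdgeR called 5 higher, DESeq2 6 higher and 1 lower, and limma on KYSE-30 alone 1 higher. With siSHIP2 replicate 1 or siCT replicate 1 left out limma called 0. The response differed between the lines for 6 of the 7 (limma interaction, adjusted p of 0.000311 to 0.0436), the exception being ISG15.

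Promoters of these genes were searched for the letters of the interferon-stimulated response element, a pair of GAAA with 2 bases of any kind between them, on both strands from 250 bases before to 50 bases after the start site (RefSeq, GRCh38.p14). Of the 7 called members 5 were matched to a promoter, and all 5 held the letters, as did 15 of 23 members tested and not called, and 4.38% of the 27305 genes with a promoter. OASL and OAS2 were the members not matched. The promoters of IFIT1 (chr10:89392373-89392672, plus strand), ISG15 (chr1:1013247-1013546, plus strand) and IFI44 (chr1:78649539-78649838, plus strand) are shown, with matches in capitals, because their genes were called and their promoters hold the letters.
IFIT1: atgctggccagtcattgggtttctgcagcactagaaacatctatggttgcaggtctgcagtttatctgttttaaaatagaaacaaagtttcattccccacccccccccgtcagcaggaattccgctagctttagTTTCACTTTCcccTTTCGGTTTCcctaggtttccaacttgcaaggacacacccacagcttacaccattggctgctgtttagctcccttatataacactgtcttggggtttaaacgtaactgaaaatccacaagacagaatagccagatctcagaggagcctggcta
ISG15: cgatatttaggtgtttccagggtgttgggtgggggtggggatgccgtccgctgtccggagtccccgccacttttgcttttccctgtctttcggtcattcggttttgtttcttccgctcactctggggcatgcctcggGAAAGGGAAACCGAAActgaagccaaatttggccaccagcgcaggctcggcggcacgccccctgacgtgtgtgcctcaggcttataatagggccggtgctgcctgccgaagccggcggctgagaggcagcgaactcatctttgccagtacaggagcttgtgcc
IFI44: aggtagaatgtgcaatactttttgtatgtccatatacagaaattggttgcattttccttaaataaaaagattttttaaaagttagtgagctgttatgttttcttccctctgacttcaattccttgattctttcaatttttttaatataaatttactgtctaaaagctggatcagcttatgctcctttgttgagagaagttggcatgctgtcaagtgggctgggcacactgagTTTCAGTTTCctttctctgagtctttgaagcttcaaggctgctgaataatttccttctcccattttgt
IFIT1 held 2 matches, the first beginning 116 bases before the start. ISG15 held 2 that overlap, the first beginning 113 bases before it, and IFI44 held 1, beginning 18 bases before it.

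Genes of the G1/S transition and DNA replication held 7 rises and 0 called falls among 49 tested. Their median log2 difference was 0.14, and 43 of the 49 (87.8%) lay above 0, against 51.1% of all genes tested, of which 1.05% were called higher. RRM2, a subunit of the enzyme that makes deoxynucleotides, had 364 and 365 CPM in siSHIP2 cells and 276 and 289 CPM in siCT cells (0.37, SE 0.0561, limma adjusted p = 0.00415). POLD1, the catalytic subunit of a replicative polymerase, had 78.6 and 82.7 CPM in siSHIP2 cells and 63.2 and 60 CPM in siCT cells (0.38, limma adjusted p = 0.0135). E2F1, a transcription factor that drives these genes, had 85.6 and 79.9 CPM in siSHIP2 cells and 56.8 and 63.9 CPM in siCT cells (0.45, limma adjusted p = 0.0223). All of these lay higher in both siSHIP2 libraries. E2F2, a relative of E2F1, had 26.9 and 23 CPM in siSHIP2 cells and 18.8 and 17.5 CPM in siCT cells (0.43, limma adjusted p = 0.0437). CDC6, which licenses origins, UHRF1, which maintains DNA methylation, and FEN1, a flap nuclease, rose by 0.24, 0.32 and 0.22. With the GC correction 4 members were called, of which RRM2 and CDC6 were among the 7, and TMM scaling and edgeR also called 4. Without siSHIP2 replicate 1 or without siCT replicate 1 limma called 0. In KYSE-410 E2F1 and E2F2 were called higher, at 0.61 and 0.63, and RRM2 and UHRF1 lower, at -0.14 and -0.39.

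The same promoters were searched for TTTNGCGC, a core of E2F sites, on both strands. It was present in 4 of 7 called members, in 14 of 36 members tested and not called, and in 2.17% of genes with a promoter. CDC6 (chr17:40287629-40287928, plus strand) and E2F2 (chr1:23531184-23531483, minus strand) are shown, with matches in capitals, because both were called and are known targets of E2F factors.
CDC6: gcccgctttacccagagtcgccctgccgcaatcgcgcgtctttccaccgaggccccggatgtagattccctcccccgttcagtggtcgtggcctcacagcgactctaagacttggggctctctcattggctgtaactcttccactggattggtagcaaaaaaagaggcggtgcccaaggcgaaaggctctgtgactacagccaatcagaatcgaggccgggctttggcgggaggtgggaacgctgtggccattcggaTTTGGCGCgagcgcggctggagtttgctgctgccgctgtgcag
E2F2: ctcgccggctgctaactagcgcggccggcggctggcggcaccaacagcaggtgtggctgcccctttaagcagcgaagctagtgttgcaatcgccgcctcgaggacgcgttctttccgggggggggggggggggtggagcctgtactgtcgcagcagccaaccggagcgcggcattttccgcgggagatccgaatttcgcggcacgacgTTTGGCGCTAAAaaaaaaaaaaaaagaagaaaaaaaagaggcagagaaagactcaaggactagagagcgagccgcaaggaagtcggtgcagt
The CDC6 match begins 7 bases after the start, and the first of 2 matches in E2F2 begins 42 bases before it.

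Of 32 genes of MYC and ribosome biogenesis 3 rose, and all 32 lay above 0 with a median of 0.16, where 1.05% of all genes tested were called higher and 51.1% lay above 0. BOP1, which matures ribosomal RNA, had 151 and 156 CPM in siSHIP2 cells and 121 and 129 CPM in siCT cells (0.29, limma adjusted p = 0.019). ODC1, the first enzyme of polyamine synthesis, rose by 0.33 and PPAN, of ribosome assembly, by 0.31. With the GC correction the median was 0.14 and limma called 0 members, as it did with KYSE-30 alone, without siSHIP2 replicate 1 and without siCT replicate 1. In KYSE-410 BOP1 and PPAN were called lower, at -0.51 and -0.24. Of 38 genes of G2/M and mitosis 1 rose, CDC25B, a phosphatase that activates mitotic kinases, with 221 and 217 CPM in siSHIP2 cells and 185 and 184 CPM in siCT cells (0.24, limma adjusted p = 0.0452, and 0.222 with the GC correction), a call lost without any 1 of the 4 libraries. The mitotic kinase gene PLK1 had 239 and 229 CPM in siSHIP2 cells and 212 and 224 CPM in siCT cells (0.10, limma adjusted p = 0.571). The cell cycle inhibitor gene CDKN1A had 79.4 and 82.7 CPM in siSHIP2 cells and 76.3 and 75.2 CPM in siCT cells (limma adjusted p = 0.38). Its relative CDKN1B had 45.6 and 52.4 CPM in siSHIP2 cells and 56.3 and 49.8 CPM in siCT cells (limma adjusted p = 0.474), and its groups overlapped.

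FOXO factors and their targets, which AKT holds down, held 5 falls and 1 rise among 31 tested, with a median of -0.11. Over all genes tested 1.93% were called lower and 1.05% higher. Of the members 25.8% lay above 0, against 51.1% of all genes tested. TXNIP, an inhibitor of thioredoxin, had 71.4 and 76.2 CPM in siSHIP2 cells and 133 and 91.9 CPM in siCT cells (-0.58, limma adjusted p = 0.0253). CAT, which encodes catalase, had 32.4 and 31.9 CPM in siSHIP2 cells and 44.4 and 37.3 CPM in siCT cells (-0.33, limma adjusted p = 0.0379). In both, as in CCNG2, siCT replicate 1 lay above siCT replicate 2. CCNG2, RBL2, a retinoblastoma relative, and PDK4, a kinase that closes pyruvate dehydrogenase, fell by 0.78, 0.30 and 0.54. The pseudokinase gene TRIB1 rose, with 27.2 and 27.9 CPM in siSHIP2 cells and 21.3 and 21.6 CPM in siCT cells (0.34, limma adjusted p = 0.038). With the GC correction, with KYSE-30 alone, without siSHIP2 replicate 1 and without siCT replicate 1 limma called 0 of the 31. KLHL24, a ubiquitin ligase adaptor, had 14.4 and 14.9 CPM in siSHIP2 cells and 22 and 15.8 CPM in siCT cells (-0.32, limma adjusted p = 0.186).

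Of 19 genes of basal squamous identity 3 fell, and the median was -0.10. Of the members 26.3% lay above 0, against 51.1% of all genes tested. The largest rise among them was that of the keratin KRT14, which was not called (0.38). It had 7.74 and 6.05 CPM in siSHIP2 cells and 4.9 and 5.15 CPM in siCT cells. Over all genes tested 1.93% were called lower and 1.05% higher. SOX2 (chromosome 3, 181711924 to 181714436, plus strand) had 2.4 and 2.55 CPM in siSHIP2 cells and 7.19 and 5.2 CPM in siCT cells, with the siSHIP2 mean at 39.9% of the siCT mean (-1.04, SE 0.152, limma adjusted p = 0.00347). TP63 (chromosome 3, 189631416 to 189897279, plus strand) had 30.5 and 31.8 CPM in siSHIP2 cells and 51.4 and 41 CPM in siCT cells (-0.55, SE 0.101, limma adjusted p = 0.0137). ITGA6, the integrin chain of hemidesmosomes, had 572 and 595 CPM in siSHIP2 cells and 712 and 743 CPM in siCT cells (-0.32, limma adjusted p = 0.0365). All 3 were lower in both siSHIP2 libraries and were called with KYSE-30 alone, and SOX2 and TP63 were called with the GC correction. Limma called 0 of the 19 without siSHIP2 replicate 1 or without siCT replicate 1. Of 25 genes of squamous differentiation limma called 1, SPRR1B, a precursor of the cornified envelope, with 23.6 and 27.5 CPM in siSHIP2 cells and 15.6 and 17.4 CPM in siCT cells (0.60, adjusted p = 0.0206, and 0.046 with the GC correction). The largest difference in that list was that of the keratin gene KRT13, which was not called and had 35.2 and 33.5 CPM in siSHIP2 cells and 97.4 and 45.2 CPM in siCT cells (-0.93, limma adjusted p = 0.0988). In the differentiation list edgeR, DESeq2 and limma on KYSE-30 alone each called 1 higher and 1 lower, and limma called 0 without siSHIP2 replicate 1 or without siCT replicate 1. SOX4, another SOX factor, had 10.3 and 12 CPM in siSHIP2 cells and 11.7 and 10.8 CPM in siCT cells, and its groups overlapped.

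Of 33 genes of desmosomes and junctions, the desmosomal cadherins DSC2 and DSC3 fell. The shares over all genes tested were 1.93% called lower and 1.05% called higher. DSC2 had 52.7 and 56.5 CPM in siSHIP2 cells and 99.5 and 84.6 CPM in siCT cells (-0.74, SE 0.0888, limma adjusted p = 0.000574). DSC3 had 29 and 29 CPM in siSHIP2 cells and 48.1 and 33.9 CPM in siCT cells (-0.46, limma adjusted p = 0.0437, and 0.132 with the GC correction). The siSHIP2 libraries lay close together in both genes, whereas the siCT libraries of DSC3 lay far apart. Without siSHIP2 replicate 1 limma called 0 of the 33, and without siCT replicate 1 it called DSC2. Of 35 genes of integrins and focal adhesion 2 rose and 1, ITGA6, fell, while edgeR called 3 higher and 2 lower and DESeq2 5 higher and 3 lower. The scaffold gene BCAR1 had 82.9 and 83.9 CPM in siSHIP2 cells and 61.6 and 63.9 CPM in siCT cells (0.41, limma adjusted p = 0.0055, and 0.0485 with the GC correction), and ZYX, which encodes zyxin, rose by 0.31 (0.314 for the limma adjusted p with the GC correction). Limma called 0 of the 35 without siSHIP2 replicate 1 or without siCT replicate 1.

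Of 32 matrix genes 3 fell, TNC among them, while the median was 0.04 (-0.06 with the GC correction). Among all genes tested 1.93% were called lower and 1.05% higher. The laminin chain gene LAMC1 had 325 and 302 CPM in siSHIP2 cells and 462 and 438 CPM in siCT cells (-0.52, limma adjusted p = 0.02, and 0.0383 with the GC correction), and the collagen gene COL12A1 had 9.94 and 10.5 CPM in siSHIP2 cells and 18.1 and 14.4 CPM in siCT cells (-0.61, limma adjusted p = 0.0387, and 0.0653 with the GC correction). Both were lower in each siSHIP2 library. Without siSHIP2 replicate 1 or without siCT replicate 1 the matrix list held 1 call, TNC. Of 22 metalloproteases, inhibitors and plasminogen activators 2 fell, the inhibitor TIMP3 (-0.52) and the gelatinase MMP9 (0.949 and 1.3 CPM in siSHIP2 cells, 1.8 and 2.45 CPM in siCT cells), and both were called with the GC correction. In 31 genes of TGF-beta and BMP response 2 rose and 1 fell, while edgeR called 2 higher and 2 lower, DESeq2 2 higher and 5 lower, and limma on KYSE-30 alone 1 higher and 2 lower. The fall was that of the receptor gene TGFBR1, with 58.8 and 67 CPM in siSHIP2 cells and 111 and 85.8 CPM in siCT cells (-0.63, limma adjusted p = 0.00658, and 0.0227 with the GC correction), and the rises were those of FSTL3 and of the ligand gene BMP4 (0.42), whose call was lost with the GC correction (limma adjusted p = 0.0699). Neither the protease nor the TGF-beta list held a call without siSHIP2 replicate 1 or without siCT replicate 1.

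Of 38 genes of glycolysis and hypoxia response 3 fell, and the median was -0.06, where 1.93% of all genes tested were called lower. P4HA1, a collagen prolyl hydroxylase subunit, had 42.9 and 46.4 CPM in siSHIP2 cells and 65.3 and 69.1 CPM in siCT cells (-0.58, SE 0.0655, limma adjusted p = 0.000403). BNIP3L, a receptor for removal of mitochondria, had 52.1 and 64.5 CPM in siSHIP2 cells and 98.8 and 84 CPM in siCT cells (-0.64, limma adjusted p = 0.00357). EGLN3, an oxygen-sensing hydroxylase, had 13.3 and 14.5 CPM in siSHIP2 cells and 26 and 20.7 CPM in siCT cells (-0.70, limma adjusted p = 0.00942). None of these 3 is a glycolytic enzyme, and all 3 were called with the GC correction and with KYSE-30 alone. P4HA1 was also called without each KYSE-30 library in turn, and it was the 1 call left without siSHIP2 replicate 1 or without siCT replicate 1. In KYSE-410 all 3 were called higher, at 0.18, 0.35 and 0.32, and the difference between the lines was called for each (limma interaction, adjusted p of 1.47e-05, 3.32e-05 and 0.000169).

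Of 51 genes of lysosomes and autophagy 4 fell, CREG1 among them, and the median was -0.08. For this list and the next ones, 1.93% of all genes tested were called lower. GABARAPL1, a ubiquitin-like protein of autophagosomes, had 53.3 and 60.3 CPM in siSHIP2 cells and 80.4 and 68.6 CPM in siCT cells (-0.38, limma adjusted p = 0.0399). CREG1 was called with the GC correction and GABARAPL1 was not. Of 31 genes of the endoplasmic reticulum 4 fell, AGR2, EDEM1, which hands misfolded glycoproteins to degradation, and the disulfide isomerases PDIA3 and PDIA6. Apart from AGR2 these were small falls of 0.26, 0.23 and 0.24, and EDEM1 was the only one called with the GC correction. In 34 genes of the NRF2, glutathione and thioredoxin list 3 fell, ME1, UGDH and AKR1B10. AKR1B10, an aldo-keto reductase, was near the filter and passed it through its siCT libraries alone (0.4 and 0.4 CPM in siSHIP2 cells, 0.799 and 0.949 CPM in siCT cells), so its place in the count is no support for a fall of the list. ME1, a malic enzyme, had 46.8 and 48.1 CPM in siSHIP2 cells and 61.7 and 62.7 CPM in siCT cells (-0.38, limma adjusted p = 0.00238), and it was the only one of the 3 called with the GC correction. Without siSHIP2 replicate 1 limma called 1 of the lysosome list and 0 of the other lists of this paragraph, and without siCT replicate 1 it called 1 of the lysosome list, 0 of the endoplasmic reticulum list and 1 of the NRF2 list.

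**Figure D4:**
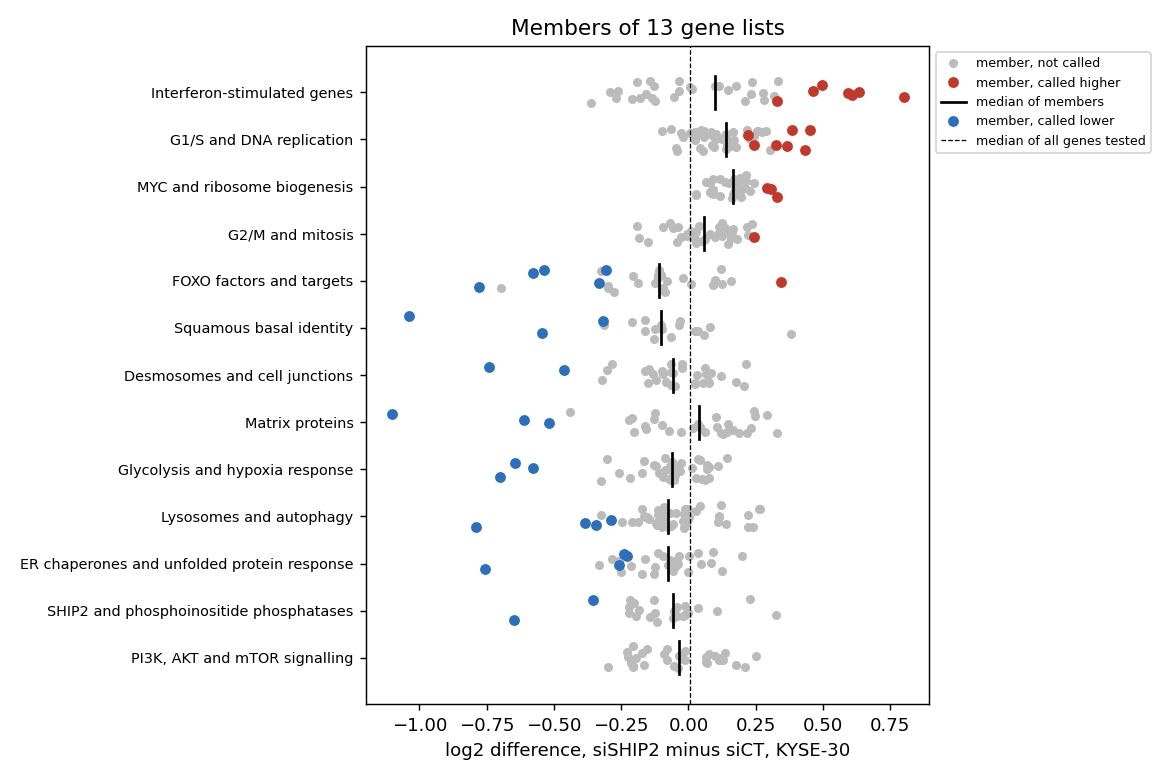
Log2 difference between siSHIP2 and siCT in KYSE-30 (horizontal axis) for each tested member of 13 gene lists, with called members in red (higher) and blue (lower), the median of each list as a bar and the median of all genes tested as a dashed line. The interferon-stimulated and G1/S lists hold 7 higher calls each, and the FOXO list 5 lower and 1 higher. Over all genes tested 1.05% were called higher and 1.93% lower.

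Single members were called in other lists, where 1.05% of all genes tested were called higher and 1.93% lower. UQCRC2, a core subunit of respiratory complex III, had 178 and 166 CPM in siSHIP2 cells and 239.9 and 244 CPM in siCT cells (-0.49, SE 0.0539, limma adjusted p = 0.000374, and 0.000455 with the GC correction), the 1 call among 74 nuclear respiratory chain genes, and it was called without each KYSE-30 library in turn. AGO2, the slicing argonaute that small RNAs guide, had 299.8 and 303 CPM in siSHIP2 cells and 223 and 223 CPM in siCT cells (0.43, limma adjusted p = 0.0178, and 0.0211 with the GC correction). In KYSE-410 AGO2 was called higher at 0.60. KMT2D, a histone methyltransferase, had 237 and 213 CPM in siSHIP2 cells and 172 and 165 CPM in siCT cells (0.41, limma adjusted p = 0.02, and 0.0557 with the GC correction). The immediate early gene JUNB rose by 0.42 and the transcription factor gene ATF5 by 0.36. Falls of 0.29, 0.28, 0.36, 0.48, 0.32 and 0.42 were those of the Kruppel-like factor KLF3, the apoptosis gene DIABLO, the p53 target CCNG1, the Notch ligase DTX4, the endocytic gene FCHO2 and the sterol enzyme SC5D, and 0 of these 8 were called with the GC correction. The calls of these 8, of AGO2 and of KMT2D were lost without siSHIP2 replicate 1 and without siCT replicate 1.

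Other lists held no call. Limma called 0 of 76 cytosolic ribosomal protein genes (5 at an unadjusted p under 0.05), and edgeR and DESeq2 called 0. It called 0 of 15 mitochondrially encoded genes (0 at an unadjusted p under 0.05), and edgeR and DESeq2 called 0. It called 0 of 22 chemokine, cytokine and NF-kB genes (6 at an unadjusted p under 0.05), and edgeR and DESeq2 called 0. Of these, NFKB2, an NF-kB subunit gene, had 85.4 and 82.8 CPM in siSHIP2 cells and 58.1 and 74.3 CPM in siCT cells (limma adjusted p = 0.0815). It called 0 of 31 Hippo pathway genes (7 at an unadjusted p under 0.05), with 0 in edgeR and 1, lower, in DESeq2. The kinase regulator gene MOB1B had 33.5 and 40.8 CPM in siSHIP2 cells and 47.3 and 45.8 CPM in siCT cells (limma adjusted p = 0.0875).

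KYSE-410 was also given siSHIP2, which asks whether a change in KYSE-30 is shared, and the lines have separate control libraries. Of the 193 genes higher in KYSE-30, 56 (29%) were called higher in KYSE-410, against 31.3% of all genes tested, and 50 (25.9%) lower, against 19.8%. Of the 354 genes lower in KYSE-30, 156 (44.1%) were called lower in KYSE-410 and 81 (22.9%) higher. The shared genes were 0.976% of those higher and 4.31% of those lower in KYSE-410. PSIP1 fell in both lines (-1.23 in KYSE-30, -1.74 in KYSE-410), as did SSBP3 (-0.95 and -1.28), LAMC1 (-0.52 and -1.25) and COL12A1 (-0.61 and -0.80). PSKH1, TRAF1, CHPF and NACC2 rose in both. For such shared changes too, effects of the siRNA on other transcripts and effects of less SHIP2 cannot be told apart. The response differed between the lines for 353 of the 547 genes (64.5%, against 34.3% of all genes tested, limma interaction). The 547 were chosen by their response in KYSE-30, which is also a part of the interaction. A share above that of all genes follows in part from this choice, so no conclusion is drawn from it.

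Some genes moved in opposite directions. IGFBP3, which binds insulin-like growth factors, had 75.4 and 89.1 CPM in siSHIP2 cells and 155 and 109 CPM in siCT cells of KYSE-30 (-0.66, limma adjusted p = 0.0276, and 0.0485 with the GC correction). In KYSE-410 its mean was 75.2 CPM in siSHIP2 cells and 23.2 CPM in siCT cells (1.66, limma adjusted p = 3.23e-08). CCNG2 fell in KYSE-30 (-0.78) and rose in KYSE-410 (1.41), and so did GABARAPL1 (-0.38 and 1.26). The largest differences in which KYSE-30 lay below KYSE-410 were those of TP53INP1, KLHL24, PNRC1, PBXIP1, CREBRF and IGFBP3 (-3.10 to -2.32), and apart from IGFBP3 these genes rose in KYSE-410 and were not called in KYSE-30. The largest in the other direction were those of NPR3, PITX1, NT5DC2, ELFN2, CARNMT1 and JAG2 (1.38 to 1.68), which fell in KYSE-410 and were not called in KYSE-30. Among them JAG2, a Notch ligand, had 40.4 and 40.5 CPM in siSHIP2 cells and 34.3 and 27.3 CPM in siCT cells of KYSE-30 (0.39, limma adjusted p = 0.061). Over all genes 13.7% had a response called above, and 20.6% below, that of KYSE-410. Of the genes called for a difference 40% lay above, against 51.9% with TMM scaling, so that split depends on the scaling.

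**Figure D5:**
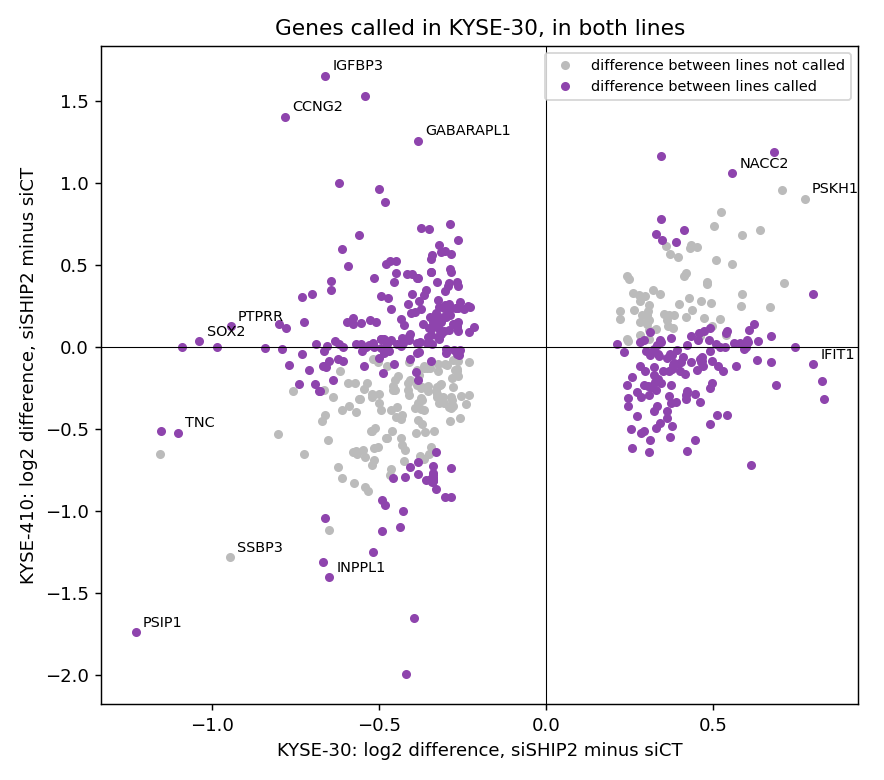
Log2 difference between siSHIP2 and siCT in KYSE-30 (horizontal axis) and KYSE-410 (vertical axis) for the 547 genes called in KYSE-30. Purple points are the 353 genes whose difference between lines was called. PSIP1 and INPPL1 lie low in both lines, and IGFBP3, CCNG2 and GABARAPL1 lie low in KYSE-30 and high in KYSE-410.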

How the data were processed

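RNA of 10 samples was sequenced from Ovation Solo libraries, per the labels' protocols. Reads were processed with STAR 2.5.3a and HTSeq on hg38, per the submitters' processing notes; whether counting used strand is not given in the sources used here, so genes and their antisense partners cannot be told apart. The deposited table holds CPM for 58302 genes, and 0 columns were left unused. Over 99.9% of values were whole multiples (within 0.05 steps) of about 0.05 CPM, so depths are estimates from those steps.

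Genes with at least 0.5 CPM in 2 of the 4 KYSE-30 libraries (18339) entered limma 3.58.1 (R 4.3.3) with a trend, on log2(CPM + 1) with 4 group means over the 10 libraries, and p-values were adjusted by Benjamini-Hochberg over all of them. The interaction contrast compared the lines. The unit is CPM, so count tests (edgeR 4.0.16, DESeq2 1.42.0) ran only as alternatives on recovered scaled counts. Other alternatives were scaling, pseudocount, filters, a fit of KYSE-30 alone, line weights, a replicate block, a test against a 1.2-fold change and the omission of single libraries. The GC corrections and the crossed block were chosen after seeing the data. The pipeline was tested on simulated data.

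Named were the 15 largest rises and falls among called genes with a mean of at least 5 CPM and no overlap, up to 6 called members of each list (3 by unadjusted p where none was called), the 6 largest differences between the lines in each direction, and a few fixed genes. OAS2, FEN1, DDX60, KCNK2, GABRP, RCN2, CFL2, KRT13, ESAM and TUBB3 were named after their values were seen, as was KRT14 in the basal squamous list. Members and the 39 lists were chosen with earlier results of these data known. A few genes that this rule names are not reported here. Gene positions are from GENCODE 29 (GRCh38).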

Additional observations from a re-analysis of the deposited data

Results flagged for a closer look

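Values here are the response to siSHIP2 in KYSE-30 minus that in KYSE-410 (log2 scale, limma interaction, adjusted p at most 0.05), and each was singled out because the response differed between the lines.

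Among the 15 largest rises in KYSE-30 the difference was 1.15 for the pseudogene RPS27AP16, 0.48 for NCEH1, 0.90 for IFIT1, 0.92 for FSTL3, 0.61 for NPTX1, 0.60 for SMIM13, 0.71 for IFI44, 0.50 for OASL, 0.57 for NCR3LG1 and 0.60 for SPRR1B. It was -0.50 for NACC2, which rose more in KYSE-410.

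Among the 15 largest falls it was -0.64 for SLITRK6, -0.58 for TNC, -0.98 for SLC1A6, -1.07 for PTPRR, -0.84 for VTCN1, -0.78 for CREG1, -2.19 for CCNG2, -0.66 for SEMA3D, -0.51 for DSC2, -0.69 for CEACAM6 and -0.88 for ENPP5. PSIP1 fell more in KYSE-410 (0.51). SLC1A6 and SPRR1B were at 0 in all KYSE-410 libraries, and NPTX1, CEACAM6, ENPP5 and VTCN1 had means of at most 0.37 CPM there, so a response was not detectable in that line at this depth.

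The largest differences over all genes were 1.68 for NPR3, 1.60 for PITX1, 1.49 for NT5DC2, 1.40 for ELFN2, 1.40 for CARNMT1 and 1.38 for JAG2. In the other direction they were -3.10 for TP53INP1, -3.02 for KLHL24, -2.77 for PNRC1, -2.63 for PBXIP1, -2.43 for CREBRF and -2.32 for IGFBP3.

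Among the genes named whatever their p, it was 0.75 for INPPL1, 0.39 for AKT1, 0.90 for PLK1 and 0.37 for CDKN1A. It was -0.74 for CDKN1B, -1.07 for SOX2, -0.43 for TP63 and -1.69 for SOX4. SOX2 was low in KYSE-410, with means of 1.13 CPM in siSHIP2 cells and 1.08 CPM in siCT cells. At such levels a response comes out too small on this scale, so its difference between the lines is uncertain.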

How the results depend on the processing

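The count of called genes in KYSE-30 (547) was 122 with no filter, 112 with KYSE-30 alone, 157 with line weights, 9 against a fold change of 1.2, 183 with the GC correction and 212 with KYSE-30 alone and that correction. Leaving out 1 library gave 13 to 917 calls. The count of differences between the lines (6283) was 1752 against a fold change of 1.2, and 4639 to 6809 without 1 library. INPPL1 kept its direction under all alternatives. Its log2 difference of -0.65 was not called against a fold change of 1.2 (limma adjusted p = 0.123), and it was -0.72 to -0.58 without 1 library. The other scalings, the 5 CPM filter, the 0.1 CPM pseudocount, edgeR and DESeq2 kept both counts within 1.5 times. Of the 87 named genes called in KYSE-30, 50 lost the call with KYSE-30 alone, 79 without siSHIP2 replicate 1 and 76 without siCT replicate 1, and 0 changed direction. Genes near 0 in KYSE-410 have almost no spread there, so the spread shared by the lines can be too small for them. Of such genes, MMP9, PDK4 and VTCN1 lost the call with KYSE-30 alone (limma adjusted p = 0.13, 0.145 and 0.0879), as did CDH5 and ENPP5. SLC1A6, SPRR1B, NPTX1 and CEACAM6 kept it. Where a setting moved a result, the cause was not tested.

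With the replicate number as a block limma called 81 genes in KYSE-30, and 67 with the GC correction as well. Same-numbered KYSE-30 libraries had deviations that correlated at r = -0.17 across genes, and with 2 libraries a group the crossed pairing has the same size with the other sign, so whether the numbers mark shared batches was not settled. A block with crossed numbers gave 539 calls.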

Other observations

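The gamma protocadherins, adhesion genes in a cluster on chromosome 5 whose transcripts share exons, gave 21 of the 354 lower calls from 22 tested members. Their levels were 44.4 to 51.4 CPM in siSHIP2 libraries and 56.7 to 65.8 CPM in siCT libraries, with log2 differences of -0.36 to -0.34. How many reads fell on shared exons was not tested, so these values are uncertain as separate measurements, and 333 lower calls remain without them.

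Over all genes tested 1.05% were called higher and 1.93% lower. By annotation 166 protein-coding genes were called higher and 329 lower of 13345 tested. Among 2019 antisense genes 16 were called higher and 8 lower, and among 763 long intergenic non-coding genes 3 and 4. Further genes kept their calls in KYSE-30 without each of its libraries in turn, namely GABRP (-1.09), P4HA1 (-0.58), UQCRC2 (-0.49), ZNF608 (-0.69), C1orf61 (0.75) and NACC2 (0.56). They are not among the calls that held under every alternative. GABRP had no adjusted p under some alternative and was called under all that gave one, while the others lost the call under some alternative.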
